A study of Mus musculus with 12 samples.

Results

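The Polycomb group genes described here are 35 mouse genes that code for subunits of the Polycomb repressive complexes PRC2 and PRC1, their accessory proteins, and the related MBT and SCM proteins, among them Sfmbt2. A gene counted as measured when the array had a probe set annotated to its symbol alone, and where several did, the brightest on average stood for the gene. This gave 32 of the 35 genes, out of 22180 genes measured by the same rule. Cbx6, Kdm2b and Bcor each had only a probe set shared with other symbols and were not analysed here. Of the 32, 28 averaged a log2 level of 6 or more over the 12 arrays.

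The 12 arrays came from K3 mouse embryonic stem (ES) cells in 3 groups of 4. WT/mock cells kept the ERRb gene (Esrrb, an orphan nuclear receptor of the pluripotency network) and were clones 5-2 and 5-5. KO/mock cells carried a knockout of ERRb and were clones 8-3 and 8-4. KO/ERRb-wt cells carried the same knockout and a lentivirus that expresses ERRb, and were clones 12-1 and 12-3. Each clone gave 2 arrays, which the labels call biological replicates. The labels do not describe the mock treatment further. All groups were maintained in N2B27 with the kinase inhibitors CH99021 and PD0325901 plus LIF, and were then treated for 3 days in N2B27 with both inhibitors and doxycycline, so the controls carry every one of these agents too. The question named in the series title is which genes ERRb targets. Each group rests on 2 clones, so a difference between groups and a difference between these particular clones cannot be told apart beyond that number. Values are RMA log2 expression, and a difference of 1 is a 2-fold change. A gene was said to pass the test, to rise or to fall, at an adjusted p under 0.05 over all 41345 probe sets.

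Polycomb proteins keep developmental genes silent. PRC2 places methyl groups on lysine 27 of histone H3 through EZH2 or EZH1, and PRC1 places ubiquitin on histone H2A through RING1 or RNF2. The PCGF subunits sort PRC1 into a canonical form, which binds the PRC2 mark through a CBX protein, and variant forms with RYBP or YAF2. SFMBT1 and SFMBT2 carry MBT repeats and a SAM domain, like the fly protein Sfmbt. Mouse Sfmbt2 is an imprinted gene expressed from the paternal allele, is needed for the trophoblast lineage of the placenta, and holds a large cluster of microRNA genes in an intron.

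The knockout itself was checked first. The Esrrb probe set read 7.38 to 7.39 on the arrays labelled WT/mock, 7.41 to 8.00 on those labelled KO/mock and 6.50 to 6.99 on those labelled KO/ERRb-wt. It was lower in KO/ERRb-wt than in KO/mock by 0.93 ± 0.13 (log2 ± SE, adjusted p = 0.00436), and its KO/mock minus WT/mock difference was 0.28 ± 0.13 (adjusted p = 0.324). This order goes against the labels. The labels do not say where the deleted part lies, so it is unknown whether these probes lie inside it, and every direction below is that of the labelled groups. The ES cell identity matched the label: 9 of 10 ES cell markers had a mean level of at least 6, against 1 of 8 feeder fibroblast markers, 3 of 8 primitive endoderm markers and 4 of the 7 measured trophoblast markers. In WT/mock, KO/mock and KO/ERRb-wt the log2 of the summed unlogged levels was 14.06 to 14.15, 13.99 to 14.03 and 13.90 to 13.97 for the ES cell markers, and 8.28 to 8.31, 8.21 to 8.36 and 8.35 to 8.43 for the fibroblast markers. For the primitive endoderm markers it was 8.77 to 8.91, 8.81 to 8.99 and 8.66 to 8.75. The brightest markers weigh most in such a sum. Of the 10 ES cell markers, 2 passed in KO/mock minus WT/mock, 3 in KO/ERRb-wt minus KO/mock and 5 in KO/ERRb-wt minus WT/mock. These were 20%, 30% and 50%, against 5.58%, 4.4% and 20.8% of all genes. Among genes with a mean level of at least 6 the shares were 10.8%, 8.3% and 37.8%. Of the last 5, 4 were lower, with Klf4 at -0.78 ± 0.07 (adjusted p = 2.59e-05), and 1 was higher. The part of these marker levels in the results below was not tested. Array medians lay between 5.00 and 5.07.

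Sfmbt2 passed the test in all 3 comparisons. On the arrays labelled WT/mock its log2 level was 6.34 and 6.41 in clone 5-2 and 6.78 and 6.75 in clone 5-5. On those labelled KO/mock it was 7.61 and 7.67 in clone 8-3 and 7.75 and 7.99 in clone 8-4. On those labelled KO/ERRb-wt it was 8.58 and 8.79 in clone 12-1 and 8.29 and 8.34 in clone 12-3. The 3 groups did not overlap on any array, and the ordering WT/mock, KO/mock, KO/ERRb-wt held for every clone, with clone means of 6.38 and 6.77, then 7.64 and 7.87, then 8.69 and 8.32. Each array reads a bulk culture, so more cells with Sfmbt2 and more Sfmbt2 RNA per cell cannot be told apart.

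Group means of Sfmbt2 were 6.57 ± 0.23, 7.75 ± 0.17 and 8.50 ± 0.23 (SD, n = 4 arrays from 2 clones each). Sfmbt2 rose by 1.18 ± 0.14 from WT/mock to KO/mock, a 2.27-fold difference (adjusted p = 0.00072). It was higher again in KO/ERRb-wt than in KO/mock, by 0.75 ± 0.14 or 1.68-fold (adjusted p = 0.0171). KO/ERRb-wt thus did not return Sfmbt2 towards the WT/mock level: it stood 1.93 ± 0.14, or 3.81-fold, above WT/mock (adjusted p = 9.15e-06). The comparisons share arrays, so their values stand side by side and are not independent of each other.

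Among all 22180 genes, ranked by increase, Sfmbt2 was at rank 8 in KO/mock minus WT/mock, rank 29 in KO/ERRb-wt minus KO/mock and rank 4 in KO/ERRb-wt minus WT/mock. An exact two-sided permutation test of the 4 against 4 arrays gave p = 0.0286 for each of the 3 comparisons, the smallest that the 70 splits allow, or 0.0572 after Benjamini-Hochberg adjustment over the 6 such tests made on Sfmbt2 and Sfmbt1. This test takes the 4 arrays of a group as exchangeable and ignores that they come from 2 clones. The rise over KO/mock was the least firm of the 3: its adjusted p was up to 0.0522 without either array of clone 8-3, and with each clone's 2 arrays averaged it was 0.212. With the same averaging the KO/mock minus WT/mock difference also lost its call (adjusted p = 0.105), while the whole span from WT/mock to KO/ERRb-wt kept it (adjusted p = 0.0131).

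**Figure D1:**
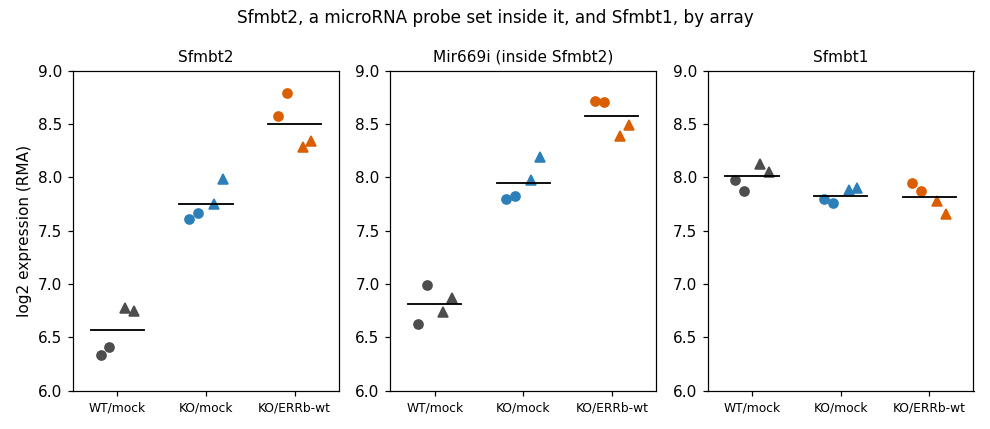
Log2 expression (RMA, vertical axis) of Sfmbt2, of the brightest Mir669i probe set inside it and of Sfmbt1 on each of the 12 arrays, by labelled group (horizontal axis). Circles and triangles are the 2 clones of a group and the bar is the group mean. Sfmbt2 steps up from a mean of 6.57 to 7.75 to 8.50 with no overlap, Mir669i takes the same steps, and Sfmbt1 stays between 7.66 and 8.13.

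RefSeq lists 2 start sites for Sfmbt2 with separate promoter windows. The 250 bases before each start are shown because the windows were searched for the element that ERR receptors bind, with those of Sfmbt1 for comparison. They come from RefSeq (GRCm38.p6), plus strand, with CpG dinucleotides in capitals. The first Sfmbt2 stretch, chr2:10370201-10370450, holds 8 CpGs and is 58.4% G or C. The second, chr2:10372186-10372435, holds 15 CpGs and is 60.8% G or C, and the Sfmbt1 stretch, chr14:30714917-30715166, holds 20 CpGs.
Sfmbt2 start 1: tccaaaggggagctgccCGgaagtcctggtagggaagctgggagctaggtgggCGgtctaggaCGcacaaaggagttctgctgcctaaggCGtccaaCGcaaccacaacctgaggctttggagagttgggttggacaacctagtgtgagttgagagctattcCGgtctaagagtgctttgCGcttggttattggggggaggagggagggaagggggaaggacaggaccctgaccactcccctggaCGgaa
Sfmbt2 start 2: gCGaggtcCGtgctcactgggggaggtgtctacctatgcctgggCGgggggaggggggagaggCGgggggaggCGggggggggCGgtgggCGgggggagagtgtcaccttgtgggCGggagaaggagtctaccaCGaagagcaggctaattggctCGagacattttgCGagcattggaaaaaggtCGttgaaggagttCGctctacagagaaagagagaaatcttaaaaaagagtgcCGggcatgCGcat
Sfmbt1: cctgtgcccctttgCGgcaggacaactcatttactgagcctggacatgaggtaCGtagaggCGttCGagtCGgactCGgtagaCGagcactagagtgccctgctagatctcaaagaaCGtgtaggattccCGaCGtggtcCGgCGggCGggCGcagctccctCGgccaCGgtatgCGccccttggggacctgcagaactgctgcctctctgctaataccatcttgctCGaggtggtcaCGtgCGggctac

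The ERR response element TCAAGGTCA, searched on both strands, was in 0 of the 45 promoter windows (300 bases each) listed for 31 of the 35 Polycomb genes. It was in 0.423% of all 32851 windows and in 0.334% of the 21263 windows of protein-coding genes. That these letters are not in the windows says nothing of binding elsewhere. The windows of the Polycomb genes were rich in CpG, with a median of 23 CpGs against 13 for protein-coding genes.

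Many microRNA probe sets inside Sfmbt2 changed in the same direction as their host gene. RefSeq places 72 microRNA genes between the ends of Sfmbt2, of the Mir466, Mir467, Mir669 and related families. The array listed 68 probe sets for these genes alone, but many rows repeat one another, and 37 distinct rows remained. Of these, 16 rose from WT/mock to KO/mock and none fell, or 43.2%, against 1.6% of all probe sets that rose. Between KO/mock and KO/ERRb-wt, 11 rose and none fell (29.7%, against 0.977% of all probe sets). Over the span from WT/mock to KO/ERRb-wt, 25 rose and none fell (67.6%, against 6.87%).

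The 37 sets had median differences of 0.50, 0.38 and 0.85 in the order of comparisons above, beside 1.18, 0.75 and 1.93 for Sfmbt2 itself, and ranged from -0.08 to 1.41, from -0.21 to 0.93 and from -0.03 to 2.21. The brightest Mir669i set read 6.63, 6.99, 6.74 and 6.87 on WT/mock arrays, 7.80, 7.83, 7.98 and 8.19 on KO/mock arrays, and 8.72, 8.71, 8.39 and 8.49 on KO/ERRb-wt arrays. Its groups did not overlap, and it rose by 1.14 ± 0.11 (adjusted p = 0.000339) and then by 0.63 ± 0.11 (adjusted p = 0.0151). Both calls were lost with each clone's arrays averaged, and the second also without clone 8-3 or clone 12-1. With the gene's probe sets averaged, the second rise had an adjusted p of 0.202. A dimmer Mir669i set, with a mean level of 4.49, overlapped between groups in all 3 comparisons (adjusted p = 0.242, 0.625 and 0.0351).

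Mir669k, in its brightest set, had means of 7.70 ± 0.19, 8.89 ± 0.19 and 9.57 ± 0.18 (SD, n = 4), and Mir669g had 6.18 ± 0.25, 7.36 ± 0.34 and 8.28 ± 0.24. Both passed in all 3 comparisons. Mir467c did not follow: its means were 8.16 ± 0.13, 8.07 ± 0.18 and 8.20 ± 0.12, with adjusted p of 0.797, 0.568 and 0.847. Mir467e, at 5.99 ± 0.14, 6.04 ± 0.32 and 6.32 ± 0.17, passed in none either. These families have near-identical copies that probes may share, the labelled RNA is total RNA and the probe sets cannot tell the unspliced host transcript from a microRNA hairpin, so they are readings from within the Sfmbt2 locus and not 37 separate genes. The first count, 16, was 0 with each clone's arrays averaged, 9 without clone 5-2 and 8 without clone 8-4. The second, 11, was 0 with that averaging and without clone 8-3, 1 without clone 12-1 and 6 without clone 12-3, and of single arrays it was 3 without either array of clone 8-3 and 7 without replicate 2 of clone 12-3. With a gene's probe sets averaged, which left 28 sets, the counts were 9, 4 and 16.

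**Figure D2:**
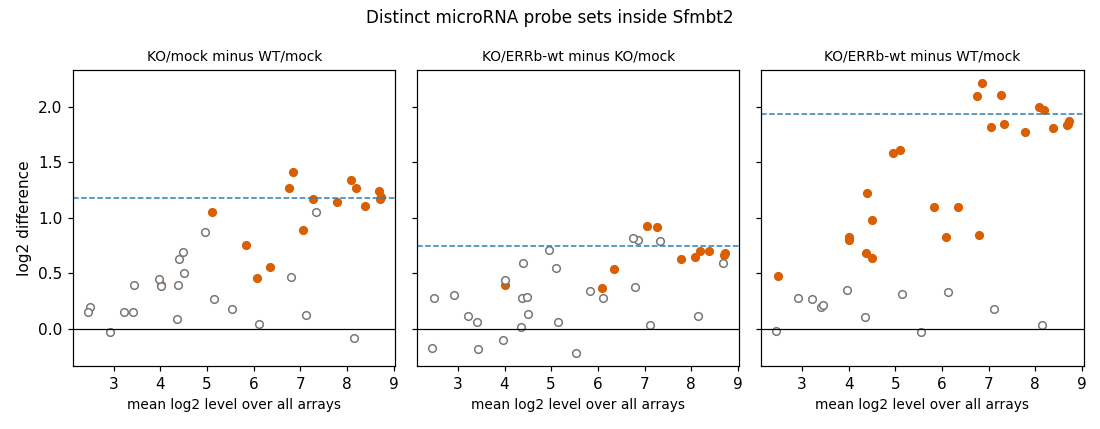
Log2 difference (vertical axis) of the 37 distinct microRNA probe sets inside Sfmbt2 against their mean log2 level over all arrays (horizontal axis), for the 3 comparisons. Filled points passed the test, open points did not, and the dashed line is the difference of Sfmbt2 itself. The sets range from -0.03 to 2.21 in the last panel, with a median of 0.85 below the Sfmbt2 difference of 1.93. The horizontal axis includes the groups where a set was high.

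The genes beside Sfmbt2 on chromosome 2 had smaller differences. The 5 named genes on each side that the array measures had median differences of 0.07, 0.09 and 0.17. Of these 10, 4 had a mean level of at least 6. The nearest on each side, Itih5 (3.72) and Prkcq (4.98), were dimmer, which limits how far they can show a change. Itih5, the nearest before Sfmbt2, differed from WT/mock by 0.14 in KO/mock and by 0.26 in KO/ERRb-wt (the latter with an adjusted p of 0.0993). Prkcq, the nearest after it and the gene of a T-cell protein kinase C, differed from WT/mock by -0.09 and -0.12.

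Of the 10 neighbours, Kin was the one gene that rose in KO/mock, by 0.30 ± 0.07 (adjusted p = 0.0338). Pfkfb3, which makes an activator of glycolysis, was the one that rose in KO/ERRb-wt over WT/mock, by 0.37 ± 0.10 (adjusted p = 0.0273). None passed in KO/ERRb-wt minus KO/mock by limma, where 2 had an unadjusted p under 0.05. In the order of comparisons above, the calls came to 10%, 0% and 10% of the 10, against 5.58%, 4.4% and 20.8% of all genes. The Kin call was lost without any one of 6 arrays (both of clone 5-2, replicate 1 of clone 5-5, replicate 2 of clone 8-3, both of clone 8-4; adjusted p up to 0.0977). The Pfkfb3 call was lost without either array of clone 5-2 or replicate 1 of clone 5-5 (adjusted p up to 0.0725).

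**Figure D3:**
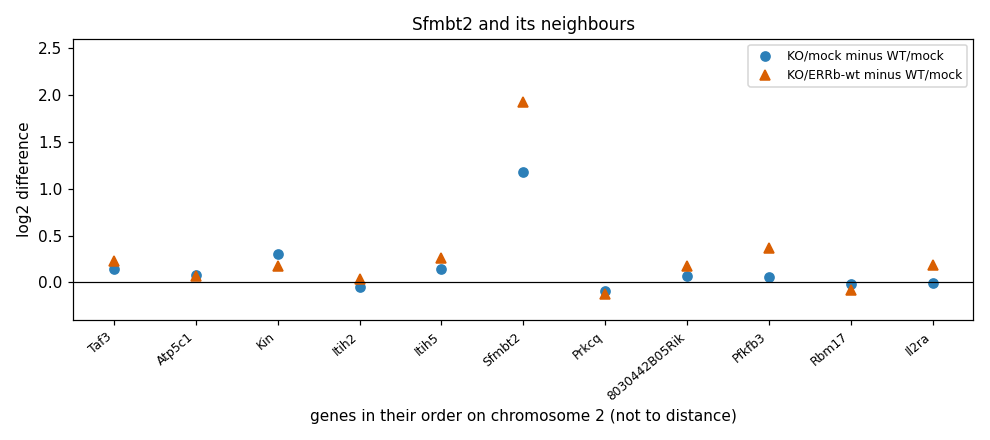
Log2 difference (vertical axis) of Sfmbt2 and of the 5 measured named genes on each side, in their RefSeq order on chromosome 2 (horizontal axis, not to distance). Circles are KO/mock minus WT/mock and triangles KO/ERRb-wt minus WT/mock. Sfmbt2 stands at 1.18 and 1.93, while its neighbours lie between -0.12 and 0.37. Of the 10 neighbours, 4 had a mean log2 level of at least 6, and the dimmer ones can show little.

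Because Sfmbt2 serves the trophoblast lineage, the trophoblast markers are given beside it. The summed level of the 7 measured markers of 8 was 8.82 to 9.01 (log2) in WT/mock, 9.01 to 9.22 in KO/mock and 9.03 to 9.31 in KO/ERRb-wt. Of the 7, 1 passed in KO/ERRb-wt minus WT/mock (14.3%, against 20.8% of all genes) and none in the other comparisons. Cdx2, the transcription factor that sets up trophectoderm, rose in KO/ERRb-wt over WT/mock by 0.54 ± 0.14 (adjusted p = 0.0221). That call was lost without replicate 2 of clone 12-1 (adjusted p = 0.0552). The part of these markers in the Sfmbt2 result was not tested.

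Sfmbt1, the closest relative of Sfmbt2, passed in no comparison. Its levels were 7.98, 7.87, 8.13 and 8.05 on WT/mock arrays, 7.80, 7.76, 7.88 and 7.90 on KO/mock arrays, and 7.95, 7.87, 7.78 and 7.66 on KO/ERRb-wt arrays. The groups overlapped in each comparison. The differences were -0.17 ± 0.08 (adjusted p = 0.299), -0.02 ± 0.08 (adjusted p = 0.93) and -0.19 ± 0.08 (adjusted p = 0.129), and the exact two-sided permutation test gave p of 0.0857, 0.8 and 0.0571, or 0.103, 0.8 and 0.0857 after adjustment.

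Sfmbt1 lies on chromosome 14, whose genes were lower as a whole. Among genes with a mean level of at least 6, the 342 on chromosome 14 had a median of -0.41 in KO/mock minus WT/mock and -0.48 in KO/ERRb-wt minus WT/mock, against 0.03 and -0.01 for the 9380 on other chromosomes. The part of that shift in the Sfmbt1 values was not tested. The 2 SCM genes, Scmh1 and Scml2, also passed in no comparison: Scmh1 had means of 7.56, 7.51 and 7.48, and Scml2 of 4.62, 4.77 and 4.78.

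Across the 32 measured genes, 1 passed in KO/mock minus WT/mock, or 3.12%, against 5.58% of all genes (2.11% higher and 3.47% lower). That gene was Sfmbt2. The median difference of the 32 was 0.03, beside 0.00 for all genes, and without Sfmbt2 the differences ran from -0.23 (Ezh1) to 0.28 (Cbx2). Against KO/mock, KO/ERRb-wt had 2 that passed, or 6.25%, beside 4.4% of all genes (1.24% higher and 3.17% lower): Sfmbt2 rose and Pcgf2 fell, with a median of -0.01. In KO/ERRb-wt minus WT/mock 9 passed, 5 higher and 4 lower, or 28.1%, against 20.8% of all genes (8.82% higher and 12% lower) and 37.8% of genes with a mean level of at least 6. The median there was -0.05, and leaving out Sfmbt2 the differences ran from -0.41 to 0.51. Among genes with a mean level of at least 6, to which 28 of the 32 belong, the shares called in the first 2 comparisons were 10.8% and 8.3%. The Polycomb shares cover all 32 genes and rest on counts of 1, 2 and 9. No difference from either background is read from them.

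**Figure D4:**
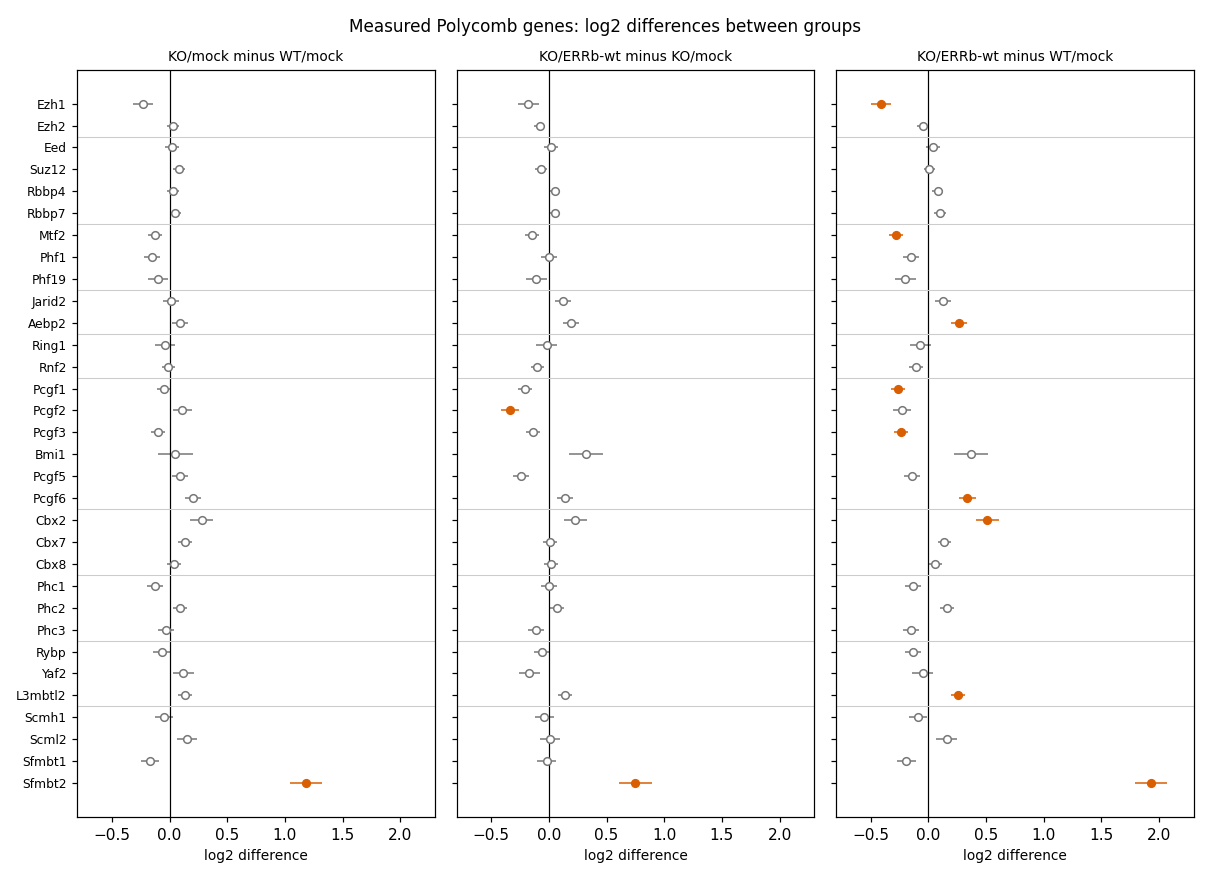
Log2 difference ± SE (horizontal axis) of each of the 32 measured Polycomb genes (vertical axis, grouped by role) in the 3 comparisons. Filled orange points passed the test and open points did not. Sfmbt2 lies far to the right in each panel, at 1.18, 0.75 and 1.93, and the others lie between -0.41 and 0.51.

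The 11 PRC2 genes had differences between -0.41 and 0.27. In the first comparison none passed by limma (1 had an unadjusted p under 0.05), and in KO/ERRb-wt minus KO/mock none did (2 had an unadjusted p under 0.05). From WT/mock to KO/ERRb-wt 3 passed (27.3%, against 20.8% of all genes and 37.8% of those with a mean level of at least 6): Ezh1 and Mtf2 fell and Aebp2 rose. Ezh1, the catalytic subunit typical of non-dividing cells, read 9.94, 9.85, 9.67 and 9.53 on WT/mock arrays, 9.68, 9.52, 9.39 and 9.49 on KO/mock arrays and 9.39, 9.34, 9.33 and 9.31 on KO/ERRb-wt arrays. The KO/ERRb-wt arrays lay below all WT/mock arrays and at the lower edge of the KO/mock range, and the fall from WT/mock was -0.41 ± 0.09 (adjusted p = 0.0104). The KO/mock minus WT/mock difference was -0.23 ± 0.09 (adjusted p = 0.23).

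Ezh2, the main H3K27 methyltransferase of ES cells, passed in no comparison. It read 11.22, 11.21, 11.27 and 11.29 on WT/mock arrays, 11.28, 11.25, 11.27 and 11.30 on KO/mock arrays and 11.21, 11.22, 11.21 and 11.16 on KO/ERRb-wt arrays, so that KO/ERRb-wt lay below KO/mock by a margin within the test's error (-0.08 ± 0.05, adjusted p = 0.408). Eed, which reads the methyl mark, read 9.99, 9.94, 10.06 and 10.13, then 9.96, 10.02, 10.13 and 10.09, then 10.08, 10.01, 10.08 and 10.09. Its groups overlapped and its KO/ERRb-wt minus WT/mock difference was 0.04 ± 0.06 (adjusted p = 0.763). Suz12, the scaffold of PRC2, read 10.39, 10.32, 10.44 and 10.38, then 10.48, 10.41, 10.42 and 10.53, then 10.39, 10.40, 10.38 and 10.36, with differences of 0.08, -0.07 and 0.01 and adjusted p of 0.521, 0.476 and 0.961. The histone binders Rbbp4 and Rbbp7 had means of 10.32, 10.35 and 10.39, and of 11.74, 11.79 and 11.84, and neither passed.

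The accessory proteins of PRC2 guide it to chromatin. Mtf2, a PCL protein that binds CpG-rich DNA, read 9.37, 9.44, 9.27 and 9.35 on WT/mock arrays, 9.24, 9.16, 9.20 and 9.32 on KO/mock arrays and 9.14, 9.14, 8.95 and 9.08 on KO/ERRb-wt arrays. The last group lay below both others, and the fall from WT/mock was -0.28 ± 0.06 (adjusted p = 0.0113). The other PCL genes, Phf1 and Phf19, had differences of -0.15 and -0.20 (adjusted p = 0.192 and 0.142).

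Aebp2, a subunit of the other PRC2 form, read 8.68, 8.68, 8.59 and 8.70, then 8.64, 8.60, 8.82 and 8.94, then 8.95, 8.98, 8.92 and 8.91. It rose in KO/ERRb-wt over WT/mock by 0.27 ± 0.07 (adjusted p = 0.0275). The 2 KO/mock clones stood apart, clone 8-3 within the WT/mock range and clone 8-4 nearer to KO/ERRb-wt. The Aebp2 call was lost without any one of 7 arrays (both of clone 5-2, replicate 1 of clone 5-5, all 4 KO/ERRb-wt arrays; adjusted p up to 0.0715). Jarid2, its partner, had means of 10.33, 10.34 and 10.46 and did not pass.

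Of the 17 measured PRC1 genes out of 20, none passed in KO/mock minus WT/mock by limma (3 had an unadjusted p under 0.05). Between KO/mock and KO/ERRb-wt 1 passed (5.88%, against 4.4% of all genes), and between WT/mock and KO/ERRb-wt 5 did (29.4%, against 20.8%). Among genes with a mean level of at least 6, to which 15 of the 17 belong, those 2 shares were 8.3% and 37.8%. The ubiquitin ligases were not among the PRC1 genes that passed. Rnf2 (RING1B) read 10.48, 10.48, 10.55 and 10.42 on WT/mock arrays, 10.44, 10.40, 10.48 and 10.57 on KO/mock arrays and 10.43, 10.42, 10.31 and 10.34 on KO/ERRb-wt arrays, with differences of -0.01, -0.10 and -0.11 (adjusted p = 0.963, 0.412 and 0.267). Ring1 read 6.03, 6.01, 6.13 and 6.07, then 5.96, 6.26, 5.93 and 5.92, then 5.85, 6.08, 6.11 and 5.94, and its groups overlapped throughout (differences -0.04, -0.02 and -0.07, adjusted p = 0.888, 0.916 and 0.677).

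The PCGF subunits, which decide the kind of PRC1, went both ways. Pcgf6, of the variant complex with L3mbtl2 and E2f6 that represses germline genes in ES cells, read 9.09, 9.15, 9.23 and 9.21 on WT/mock arrays, 9.26, 9.29, 9.45 and 9.48 on KO/mock arrays and 9.57, 9.46, 9.47 and 9.55 on KO/ERRb-wt arrays. WT/mock lay below both other groups, and the rise in KO/ERRb-wt over WT/mock was 0.34 ± 0.07 (adjusted p = 0.00436). L3mbtl2, an MBT protein of the same complex, read 9.38, 9.45, 9.54 and 9.56, then 9.62, 9.60, 9.64 and 9.58, then 9.69, 9.70, 9.82 and 9.78. Its 3 groups did not overlap, and it rose by 0.26 ± 0.06 (adjusted p = 0.00899) over the whole span, with steps of 0.13 (adjusted p = 0.311) and 0.14 (adjusted p = 0.23) that did not pass alone.

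Pcgf1, of the variant complex with KDM2B and BCOR, read 8.63, 8.68, 8.72 and 8.53, then 8.62, 8.62, 8.59 and 8.52, then 8.33, 8.31, 8.39 and 8.48. The first 2 groups overlapped (-0.05, adjusted p = 0.794), and every KO/ERRb-wt array was lower (-0.26 ± 0.06 against WT/mock, adjusted p = 0.014). Pcgf3 read 9.14, 9.19, 9.14 and 9.07, then 9.03, 9.02, 9.01 and 9.10, then 9.01, 8.96, 8.85 and 8.76, and fell by 0.24 ± 0.06 (adjusted p = 0.0251) from WT/mock to KO/ERRb-wt. A second, dimmer Pcgf3 probe set gave -0.25 (adjusted p = 0.251), and the call was lost without any one of 5 arrays (both of clone 5-2, replicate 1 of clone 5-5, both of clone 12-3; adjusted p up to 0.0694).

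Pcgf2 (MEL18), of canonical PRC1, was the single Polycomb gene that fell in KO/ERRb-wt against KO/mock. It read 8.08, 7.93, 7.88 and 7.92 on WT/mock arrays, 8.05, 7.93, 8.05 and 8.19 on KO/mock arrays and 7.83, 7.57, 7.69 and 7.80 on KO/ERRb-wt arrays. KO/ERRb-wt lay below both other groups, by 0.34 ± 0.08 against KO/mock (adjusted p = 0.0451) and by 0.23 ± 0.08 against WT/mock (adjusted p = 0.0761). The call sits at the threshold: it was lost when any 1 array but replicate 1 of clone 12-1 was left out (adjusted p up to 0.109). Its paralogue Bmi1 had means of 5.76, 5.81 and 6.13, with 0.37 ± 0.15 between KO/ERRb-wt and WT/mock (adjusted p = 0.123), and Pcgf5 had 6.93, 7.02 and 6.78.

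Cbx2, a chromodomain subunit of canonical PRC1 that compacts chromatin, had the largest change after Sfmbt2 among the 32 genes in KO/ERRb-wt minus WT/mock. It read 7.83, 7.75, 7.91 and 7.62 on WT/mock arrays, 8.11, 7.95, 8.22 and 7.98 on KO/mock arrays and 8.22, 8.19, 8.51 and 8.23 on KO/ERRb-wt arrays. WT/mock lay below both other groups. It rose in KO/ERRb-wt over WT/mock by 0.51 ± 0.10, or 1.43-fold (adjusted p = 0.00358), and its difference in KO/mock was 0.28 ± 0.10 (adjusted p = 0.146). Cbx7, the main CBX protein of ES cells, had means of 9.26, 9.39 and 9.40 and did not pass.

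The remaining PRC1 genes passed in no comparison. Among the PHC genes, whose SAM domains link PRC1 particles, Phc1 had means of 11.15, 11.02 and 11.02, Phc2 of 6.24, 6.33 and 6.40, and Phc3 of 6.82, 6.78 and 6.67. Rybp had 11.42, 11.35 and 11.29, its paralogue Yaf2 had 6.83, 6.95 and 6.78, and Cbx8 had 4.44, 4.48 and 4.50.

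**Figure D5:**
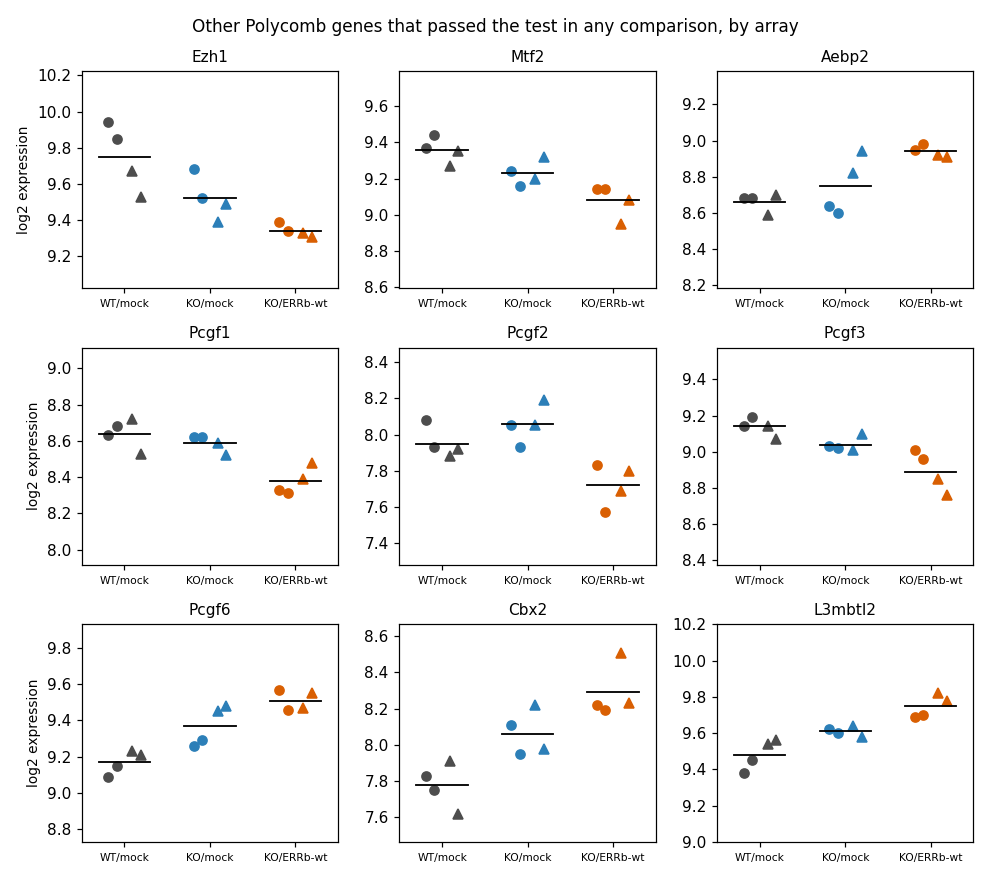
Log2 expression (RMA, vertical axis, each panel spanning 1.2) on each array of the 9 Polycomb genes beside Sfmbt2 that passed the test in any comparison, by labelled group (horizontal axis). Circles and triangles are the 2 clones of a group and the bar is the group mean. Aebp2, Pcgf6, Cbx2 and L3mbtl2 are highest in KO/ERRb-wt, and Ezh1, Mtf2, Pcgf1, Pcgf2 and Pcgf3 are lowest there.

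The clones of one label were also compared. With the 6 clones as groups in limma, 5, 2 and 3 of the 32 genes had an unadjusted p under 0.05 in WT/mock, KO/mock and KO/ERRb-wt. With 2 arrays against 2, this test called 0%, 0.00484% and 0.0169% of all probe sets after adjustment and none of the 32 genes, which says little about how alike the clones were. The largest clone differences within each group were those of Sfmbt2 itself in WT/mock (0.39) and KO/ERRb-wt (0.37, higher in clone 12-1), and that of Aebp2 in KO/mock (0.26). They lie below the smallest Sfmbt2 group difference of 0.75, which is between means of 2 clones. The nearest single clones across that step were closer, with Sfmbt2 means of 7.87 in clone 8-4 and 8.32 in clone 12-3. Several group differences of other genes that passed, such as 0.27 for Aebp2 and -0.41 for Ezh1 (whose WT/mock clones differed by 0.30), are of the size of these clone differences.

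Genes that work with the Polycomb complexes were counted in the same way. Of 4 further PRC2-associated genes, none passed in the first 2 comparisons by limma (1 and 2 had an unadjusted p under 0.05). In KO/ERRb-wt minus WT/mock 2 passed (50%, against 20.8% of all genes and 37.8% of those with a mean level of at least 6). Lcorl, whose locus codes for a PRC2 adaptor, fell by 0.83 ± 0.12 (adjusted p = 0.000899), from a mean of 6.93 ± 0.22 to 6.10 ± 0.09. Epop, a PRC2 partner in ES cells, rose by 0.39 ± 0.09 (adjusted p = 0.0134).

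Of 25 measured further PRC1 partners out of 27, 2 passed in KO/mock minus WT/mock, 1 in KO/ERRb-wt minus KO/mock and 6 in KO/ERRb-wt minus WT/mock, or 8%, 4% and 24%, against 5.58%, 4.4% and 20.8% of all genes. Among genes with a mean level of at least 6, to which 20 of the 25 belong, the shares were 10.8%, 8.3% and 37.8%. In KO/mock the 2 that rose were Auts2, of the PCGF3 and PCGF5 complexes, by 0.43 ± 0.08 (adjusted p = 0.0149) and Max, the partner of MGA in the PCGF6 complex, by 0.34 ± 0.07 (adjusted p = 0.018). The Max call was lost without any one array of clones 5-2 and 8-4 (adjusted p up to 0.0614). A single partner passed between KO/mock and KO/ERRb-wt: Hdac2, a histone deacetylase, fell by 0.23 ± 0.05 (adjusted p = 0.0363), a call lost when any 1 array was left out but replicate 2 of clones 5-2 and 5-5 and replicate 1 of clone 8-4 (adjusted p up to 0.0916). Against WT/mock, 6 passed in KO/ERRb-wt, 5 of them higher, with Max at 0.49 ± 0.07 (adjusted p = 0.000644), Auts2 at 0.41 ± 0.08 (adjusted p = 0.00591), Skp1 at 0.34 ± 0.06 (adjusted p = 0.0018) and Hdac2 at -0.36 ± 0.05 (adjusted p = 0.0006). The list's medians were 0.05, 0.03 and 0.07.

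The PR-DUB complex removes the ubiquitin that PRC1 adds. The list counted here also holds Usp16 and Mysm1, which are not subunits of that complex. Of the list's 12 measured genes out of 13, 3 passed in KO/mock minus WT/mock (25%, against 5.58% of all genes and 10.8% of those with a mean level of at least 6). Bap1, the catalytic subunit, fell by 0.36 ± 0.06 (adjusted p = 0.00524), and it lies on chromosome 14, whose median is given above. Asxl1 rose by 0.38 ± 0.08 (adjusted p = 0.026), a call lost without any one array of clones 5-2 and 8-4 (adjusted p up to 0.0811). Asxl3 fell by 0.35 ± 0.08 (adjusted p = 0.0431), a call lost when any 1 array but replicate 2 of clone 5-5 was left out (adjusted p up to 0.108). None passed in KO/ERRb-wt minus KO/mock by limma (4 had an unadjusted p under 0.05). Between WT/mock and KO/ERRb-wt 5 passed (41.7%, against 20.8% and 37.8%), led by Asxl1 at 0.59 ± 0.08 (adjusted p = 0.0006) and Bap1 at -0.32 ± 0.06 (adjusted p = 0.00318), with Foxk1 at 0.33 ± 0.08 (adjusted p = 0.0129) and Asxl2 at 0.20 ± 0.05 (adjusted p = 0.03). The Asxl2 call was lost without any one of 6 arrays (both of clones 5-2 and 12-1, replicate 1 of clones 5-5 and 12-3; adjusted p up to 0.0867). The list's medians were 0.04, 0.03 and 0.04.

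Opposing the Polycomb mark are the H3K27 demethylases and the Trithorax group. Of 17 measured genes out of 18, 2 rose in KO/mock (11.8%, against 5.58% of all genes called and 10.8% of those with a mean level of at least 6): Uty, a Y-linked relative of Kdm6a, by 1.33 ± 0.19 (adjusted p = 0.00221) and Nsd2, an H3K36 methyltransferase, by 0.33 ± 0.06 (adjusted p = 0.0105). The WT/mock clones of Uty stood apart, at 6.58 and 6.49 in clone 5-2 and 7.37 and 7.28 in clone 5-5, and the group means were 6.93 ± 0.46 against 8.26 ± 0.10 in KO/mock and 8.18 ± 0.20 in KO/ERRb-wt. None passed in KO/ERRb-wt minus KO/mock by limma (4 had an unadjusted p under 0.05). From WT/mock to KO/ERRb-wt 5 passed (29.4%, against 20.8% and 37.8%), 4 higher and 1 lower, among them Uty at 1.24 ± 0.19 (adjusted p = 0.000946), Rbbp5 at -0.32 ± 0.05 (adjusted p = 0.00125), Men1 at 0.29 ± 0.07 (adjusted p = 0.0169) and Kmt2d at 0.36 ± 0.10 (adjusted p = 0.0365). The Kmt2d call was lost without any one of 6 arrays (both of clones 5-5 and 12-1, replicate 2 of clone 5-2, replicate 1 of clone 12-3; adjusted p up to 0.0942). The list's medians were 0.06, -0.04 and 0.05.

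The developmental genes that Polycomb marks in ES cells were mostly dim. Of 18 measured regulators out of 20, 7 had a mean level of at least 6, and the list's medians were -0.01, 0.11 and 0.12. Gata4, a primitive endoderm factor on chromosome 14, fell in KO/mock by 0.51 ± 0.10 (adjusted p = 0.0119) and in KO/ERRb-wt against WT/mock by 0.56 ± 0.10 (adjusted p = 0.00223). Cdx2, given above, was the other that passed in that last comparison, which makes 1 and 2 of 18 (5.56% and 11.1%, against 5.58% and 20.8% of all genes). None passed in KO/ERRb-wt minus KO/mock by limma (5 had an unadjusted p under 0.05).

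Of 36 Hox genes, the classic Polycomb targets, 3 had a mean level of at least 6. Hoxa7 fell in KO/mock from 6.50 ± 0.11 to 5.98 ± 0.07, by 0.52 ± 0.07 (adjusted p = 0.0024), and was lower in KO/ERRb-wt than in WT/mock by 0.29 ± 0.07 (adjusted p = 0.0198). The latter call was lost without replicate 2 of clone 5-2 or replicate 1 of clone 5-5 (adjusted p up to 0.0611). Hoxb7, dim at 3.63 ± 0.08 in WT/mock, fell by 0.31 ± 0.06 in KO/mock (adjusted p = 0.0201) and was higher by 0.32 ± 0.06 in KO/ERRb-wt than in KO/mock (adjusted p = 0.0242). The first call was lost without any one array of clones 5-2 and 8-4 (adjusted p up to 0.0638), and the second without replicate 2 of clone 8-3, 8-4, 12-1 or 12-3 (adjusted p up to 0.0691). The medians of the 36 were -0.05, 0.13 and 0.02, and none beyond these passed. The calls came to 5.56%, 2.78% and 2.78% of the 36, against 5.58%, 4.4% and 20.8% of all genes.

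Some imprinted genes, expressed from the paternal allele as Sfmbt2 is, are silenced on the maternal allele by H3K27 methylation in place of DNA methylation. Of the other 5 such genes tested, none passed in KO/mock minus WT/mock by limma (2 had an unadjusted p under 0.05). Slc38a4, an amino acid transporter gene, was lowest where Sfmbt2 was highest: its means were 10.06 ± 0.40, 9.62 ± 0.05 and 8.30 ± 0.40, and it was lower in KO/ERRb-wt by 1.32 ± 0.21 against KO/mock (adjusted p = 0.00813) and by 1.77 ± 0.21 against WT/mock (adjusted p = 0.000203). The Slc38a4 call against KO/mock was lost with each clone's arrays averaged (adjusted p = 0.184) and without clone 8-3. Gab1 was lower in KO/ERRb-wt than in WT/mock by 0.20 ± 0.05 (adjusted p = 0.0178), a call lost without replicate 1 of clone 5-2 (adjusted p = 0.0539). The calls came to 0%, 20% and 40% of the 5, against 5.58%, 4.4% and 20.8% of all genes. Among genes with a mean level of at least 6, as all 5 are, the shares were 10.8%, 8.3% and 37.8%. The list's medians were 0.14, -0.07 and 0.19.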

How the data were processed

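The authors deposited log2 expression values made by RMA with the program Affymetrix Expression Console (submitters' processing notes, which name no version). Array type MoGene 2.0 ST is per the labels. RMA gives the probe intensities of every array the same distribution before they are summarized by probe set, so a shift common to most genes would be largely hidden. No detection call was at hand for any value, and the number of arrays limits the precision.

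Symbols came from the platform annotation, which can be old and names no genome build, and gene order, chromosomes and promoters from RefSeq (GRCm38.p6). Of 41345 probe sets, 23521 had exactly 1 symbol. A single fit in limma 3.58.1 (R 4.3.3, statmod 1.5.0) took all 12 arrays and 3 groups, treating the clone as a random block. A single within-clone correlation, 0.0286, was estimated over all probe sets and used for every gene. For genes whose clones differ more, such as Sfmbt2 and Uty, the SE and adjusted p may therefore be too small. Two-sided p-values were adjusted by Benjamini-Hochberg over all probe sets and called under 0.05. The fit was also run on simulated data with independent noise on each array and no clone effect. That run cannot show how the fit handles differences between clones, and no result here rests on it. The labels do not say that the 2 arrays of a clone came from separate cultures, so p-values may partly measure technical spread.

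The members and lists were chosen with earlier results of these data known. Values on every array are given for Sfmbt2, Sfmbt1, each member that passed in any comparison, and Ezh1, Ezh2, Eed, Suz12, Ring1 and Rnf2, and from each list up to 4 passing genes per comparison with the smallest adjusted p. The strand of the microRNA genes was not checked, because the gene table used gives none, and the planned comparison of the MBT and SAM domain proteins by sequence was not made. Replicate numbers 1 and 2 recur in each clone, and no label ties them to a shared culture; deviations of same-numbered arrays in different groups correlated at -0.0686 to 0.194 (median 0.0299 over 24 pairs), so arrays were not paired. Alternatives were no clone block, clone averages, a replicate block, only the 2 groups compared, quantile normalization, median centring, dim probe sets (mean log2 level under 6) left out, a trended robust prior, array weights, the mean of a gene's probe sets, and leaving out each array and each clone.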

Additional observations from a re-analysis of the deposited data

Results flagged for a closer look

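In 5 of the 96 groups of 4 arrays tested, 1 array stood apart from the other 3 by a gap beyond Dixon's critical value; chance flags about 1 group in 20. Eed read 10.01 on replicate 2 of KO/ERRb-wt clone 12-1, against 10.08 to 10.09 on the others. Jarid2 read 10.29 on replicate 2 of KO/ERRb-wt clone 12-3, against 10.50 to 10.53. Ring1 read 6.26 on replicate 2 of KO/mock clone 8-3, against 5.92 to 5.96. Cbx2 read 8.51 on replicate 1 of KO/ERRb-wt clone 12-3, against 8.19 to 8.23. Cbx7 read 9.32 on replicate 2 of KO/ERRb-wt clone 12-1, against 9.42 to 9.43.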

How the results depend on the processing

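Each result was recomputed under 28 alternatives (27 for Hoxb7 and Pfkfb3, too dim for the filter on dim probe sets), 12 of which leave out 1 array and 6 of which leave out 1 clone. The Sfmbt2 difference kept its direction in all of them, at 0.99 to 1.38 in KO/mock minus WT/mock, 0.56 to 0.93 in KO/ERRb-wt minus KO/mock and 1.74 to 2.12 in KO/ERRb-wt minus WT/mock. Its last call held in all 28, and the first was lost with clone averages, which leave 2 values a group. The KO/ERRb-wt minus KO/mock call was lost with clone averages, without either array of clone 8-3, without clone 8-3 and without clone 12-1. The count of Polycomb genes called in KO/mock minus WT/mock (1) was 0 with clone averages, 3 without clone 5-5 (Ezh1, Scml2 and Sfmbt2), and 1 to 1 with 1 array left out. In KO/ERRb-wt minus KO/mock (2) it was 0 with clone averages and without clones 8-3 and 12-1, and 1 with the replicate block beside the clone block, with only the 2 groups compared, with quantile normalization and without clones 5-5 and 12-3; with 1 array left out it ran from 0 to 2. In KO/ERRb-wt minus WT/mock (9) it was 3 with clone averages (Bmi1, Cbx2 and Sfmbt2), 2 without clone 5-2 (Cbx2 and Sfmbt2), 4 without clone 12-3, and 7 to 10 with 1 array left out. Of the 9 genes, Sfmbt2 and Cbx2 passed in all 28 (largest adjusted p for Cbx2 0.0344). Ezh1, Mtf2, L3mbtl2, Pcgf1 and Pcgf6 were lost with clone averages and without clone 5-2, and all of these but Pcgf6 also without clone 12-3 or, for Pcgf1, without clone 12-1. The cause of these losses beyond the smaller number of arrays was not tested. The Sfmbt1 difference in KO/ERRb-wt minus KO/mock (-0.02) changed sign with quantile normalization (0.03), without clone 8-4 (0.04) and without clone 12-3 (0.08), and ran from -0.06 to 0.03 with 1 array left out (0.00 without replicate 2 of clone 8-4); the cause was not tested. The replicate block ended the Pcgf2 and Hdac2 calls in KO/ERRb-wt minus KO/mock and the Asxl3 call in KO/mock minus WT/mock. With clone averages, named genes other than members, markers and microRNAs lost every call in the first 2 comparisons. Of these, only Lcorl, Hdac2, Max, Asxl1, Gata4 and Slc38a4 kept theirs in the last. Leaving out a clone ended, among others, the KO/mock calls of Auts2 and Gata4 (5-2 or 8-4), Bap1 (8-4) and Nsd2 (5-2, 5-5 or 8-4). In the last comparison it ended those of Epop (5-2 or 12-3), Foxk1 and Men1 (each 5-2, 12-1 or 12-3). Dim probe sets sit near the array's lowest values, which limits what Hoxb7, Cbx8, the dim microRNA probe sets and the dim neighbours of Sfmbt2 can show.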
